A study of Homo sapiens with 12 samples.

Results

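The genes described here are 33 genes of the antioxidant programme under the transcription factor NRF2: its regulators, the glutathione and thioredoxin systems, enzymes that supply NADPH, aldo-keto and other reductases, efflux pumps, and genes of haem and iron handling. They were chosen by symbol from 56832 genes in the table, with earlier results of these data known, and all 33 were found. Of these, 32 passed the level filter of a mean of 1 TPM, a length-scaled share of all transcripts, in either genotype. The cells are DU145, an established line of human prostate cancer. The knockout group holds 3 clones, sgRAC1 clone 1 made with guide sgRAC1_1 and sgRAC1 clones 2 and 3 made with guide sgRAC1_2, each grown from a single cell after transfection of Cas9 with its guide. The RAC1-positive group holds sgNTC clones 1 and 2, made in the same way with the non-targeting guide sgNTC_1, and the parental line, which the labels do not describe as cloned. All 6 lines grew in RPMI with 10% serum with no other agent named, and each gave 2 libraries, replicate 1 in batch 1 and replicate 2 in batch 2. RAC1 is a small GTPase that shapes the actin cytoskeleton and is also a subunit of NADPH oxidase complexes, which make superoxide.

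NRF2, encoded by NFE2L2, is held low in resting cells because KEAP1 binds it and hands it to a ubiquitin ligase for destruction. Oxidants and electrophiles modify KEAP1, so NRF2 builds up, pairs with a small MAF protein and binds antioxidant response elements, while BACH1 competes for the same sites as a repressor. Because this control acts mainly on NRF2 protein, the mRNA levels of NFE2L2 and KEAP1 say little of NRF2 activity by themselves. DU145 cells are known for low KEAP1 and high basal NRF2 activity. Per length, the levels of the members in RAC1-positive lines covered almost the whole range of the 17367 genes tested. FTL (rank 6), TXN (rank 21), PRDX1 (rank 76) and NQO1 (rank 83, 1459 TPM) stood near the top, GCLC at percentile 66.4 and AKR1B10 at 37.3, and GPX2 (1.61), AKR1C2 (1.17) and AKR1C1 (1.09) near the bottom.

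The core of the element was sought as the motif TGACNNNGC on both strands in RefSeq windows (GRCh38.p14) from 250 bases before to 50 bases after each gene start. It stood in 8 of the 25 members with a window, against 4384 of 27305 symbols with a window, or 16.1%, and its letters can include the AP-1 motif TGACTCA. Of the 8, 6 are shown as examples, and KEAP1 and EPHX1 also held the motif. Each is 29 bases, 5′ to 3′ on the strand of the gene, with the motif or its reverse complement in capitals.
GPX2: acctgtttttGCTAAGTCAtcctggggat
PGD: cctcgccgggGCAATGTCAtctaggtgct
GCLM: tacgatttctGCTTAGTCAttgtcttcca
ME1: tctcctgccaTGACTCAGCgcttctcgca
TXNRD1: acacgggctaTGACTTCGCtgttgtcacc
CBR1: tgcgggttctGCAAAGTCAggctagctgg
The GPX2 stretch is chr14:64942849-64942877 on the minus strand, PGD is chr1:10398853-10398881 on the plus strand and GCLM is chr1:93909446-93909474 on the minus strand. The ME1 stretch is chr6:83431170-83431198 on the minus strand, TXNRD1 is chr12:104215670-104215698 on the plus strand and CBR1 is chr21:36069855-36069883 on the plus strand. By the mean over lines, genes with the motif in this window stood both among those higher in knockouts (GPX2, PGD) and among those lower (GCLM, CBR1). The match is a description of the letters and no evidence of binding.

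RAC1 itself (chr7:6374523-6403977 on the plus strand, GRCh38, GENCODE 29) was at 47.5 and 36.5 TPM in sgRAC1 clone 1, 59.2 and 54.2 TPM in sgRAC1 clone 2 and 39.6 and 40.3 TPM in sgRAC1 clone 3. RAC1-positive libraries had 188 and 149 TPM in sgNTC clone 1, 202 and 152 TPM in sgNTC clone 2 and 171 and 169.6 TPM in parental cells. Every knockout library was below every RAC1-positive library, and the difference was -1.89 on the log2(TPM + 1) scale (limma over line means, adjusted p = 0.0467). The deposited TPM values keep no depth. Among the libraries sgNTC clone 2 replicate 1 stood apart, with 13608 genes above 0 against 20470 to 25156 in the other 11, and 104 of the 5485 genes at 10 TPM or more in all other libraries were listed at 0 in it. The epithelial markers KRT8, KRT18, KRT19, EPCAM and CDH1 summed to 372 to 752 TPM in knockout libraries and 273 to 802 TPM in RAC1-positive libraries, while the prostate luminal genes KLK3 and TMPRSS2 were listed at 0 in all 12. Of the epithelial markers, EPCAM and CDH1 did not pass by line (limma adjusted p = 0.15 and 0.156). They rose over 12 libraries (limma adjusted p = 0.0184 and 0.0117), a fit in which both libraries of a line enter almost as separate units. KRT8 (0.545), KRT18 (0.419) and KRT19 (0.268) did not pass in the same fit. KRT18 went the other way, with a difference of -0.82 on the log2(TPM + 1) scale. ENO2 of the 3 neuroendocrine markers also rose over 12 libraries (0.0387), but did not pass with the replicate block (0.0504) or by line (0.241). The neuroendocrine markers summed to 8.90 to 11.7 TPM in knockout libraries and 3.89 to 9.34 TPM in RAC1-positive libraries, nearly all of it ENO2, since the other 2, CHGA and SYP, were under 1 TPM in every library. With each library or line left out, CDH1 passed in 15 of 18 fits, EPCAM in 12 and ENO2 in 2. Their part in the results on the NRF2 genes was not tested. Blood, endothelial and fibroblast markers summed to at most 1.51, 0.791 and 0.241 TPM in any library.

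Compared by line, 3 knockout lines against 3 RAC1-positive lines, none of the 32 members passed the threshold of an adjusted p of 0.05 (limma), and 12 had an unadjusted p under 0.05. The background was 1 of 17367 genes called, 0.00576%, which was RAC1, with 2256 genes at an unadjusted p under 0.05. By direction 25 members were higher in knockout lines and 7 lower, with a median difference of 0.19 on the log2(TPM + 1) scale beside 0.02 over all genes tested. The 3 knockout line means lay all above the 3 RAC1-positive means for 12 members, where 12% of all genes did so, and all below for 2, where 8.52% did so, which makes 43.8% of the members against 20.5% of all genes. With single libraries, 6 members were higher in all 6 knockout libraries than in any RAC1-positive library (GCLC, GPX2, TALDO1, AKR1B10, AKR1C1 and AKR1C2) and 1 was lower (HMOX1), 21.9% of the members. Of all genes 2.86% were apart in this way, 2.14% higher and 0.714% lower. GPX2, AKR1C1 and AKR1C2 were under 1 TPM in RAC1-positive lines and passed the level filter through the knockout lines alone, so these 3 could only be counted as higher, and the counts of members are a description. In bulk RNA a smaller share of expressing cells and less RNA per cell cannot be told apart.

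**Figure D1:**
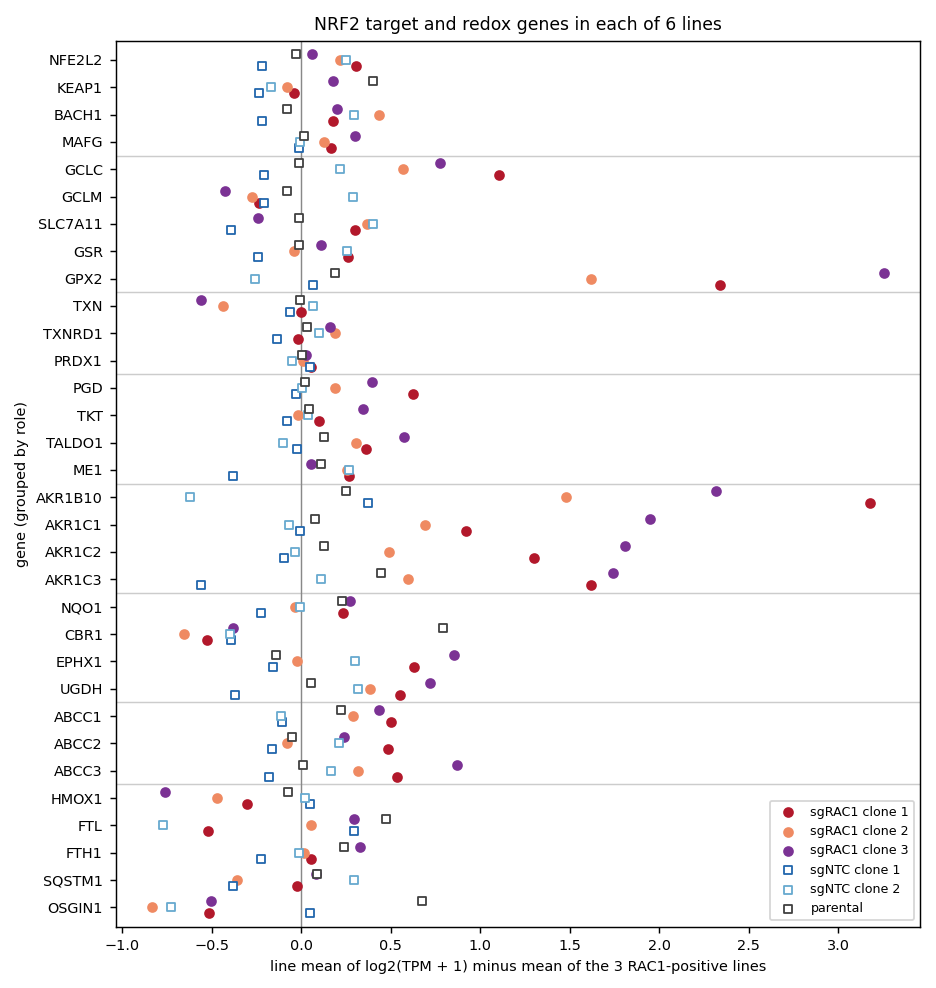
Difference of each line from the mean of the RAC1-positive lines for the 32 members tested, on the log2(TPM + 1) scale, grouped by role. Each point is 1 line, and GPX2 and AKR1B10 stand furthest to the right, while most regulators and thioredoxin genes sit near 0.

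Treating the 12 libraries as units with the line as a random block (estimated within-line correlation -0.0299, so that both replicates of a line entered almost as separate units), 4 members rose and none fell (limma, adjusted p under 0.05), 12.5% of the members. The background was 2.12% of all genes, 1.69% higher and 0.432% lower, and 1.84% with the batch as a further block, which left the same number of members. The 4 were GPX2 (adjusted p = 0.00538), GCLC (0.0173), TALDO1 (0.0182) and AKR1B10 (0.0252). Of these GPX2 passed the level filter through the knockout lines alone, so it could only be counted as higher and its calls are a description. The authors' deposited table does not state its design, so the unit of replication behind its p-values is unknown. The direction of its fold changes is not stated either and was read from the TPM values. In it, 13 of the 32 members passed an adjusted p of 0.05, 10 higher and 3 lower, which is 40.6%. Of its 15140 genes 9.74% passed, 5.68% higher and 4.06% lower. These comparisons use the same libraries and are not independent of each other. Only GPX2 passed with each library or line left out in turn: without replicate 2 of sgNTC clone 2 it was the 1 member called, at an adjusted p of 0.0422, while GCLC was at 0.0926, TALDO1 at 0.0955 and AKR1B10 at 0.0806, and all genes called were then 60. AKR1B10 was also at 0.0508 without sgRAC1 clone 1 replicate 1, 0.0530 without sgRAC1 clone 1 replicate 2 and 0.0576 without sgRAC1 clone 3 replicate 1. With a whole line left out the adjusted p reached 0.0853 for GCLC, 0.0966 for TALDO1 and 0.116 for AKR1B10.

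**Figure D2:**
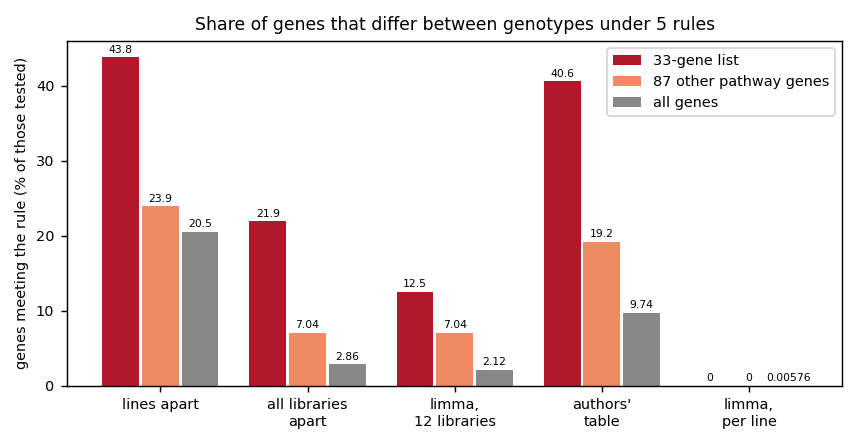
Percent of the members and of all genes tested that met each criterion, under 5 criteria, for the 33-gene list, the 87 further pathway genes and all genes. The bars of the list are taller than those of all genes for the lines apart, the libraries apart, the fit over 12 libraries and the authors' deposited table. Both lists were chosen with earlier results of these data known. GPX2, AKR1C1 and AKR1C2 also passed the level filter through the knockout lines alone, so the bars are a description.

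Among the regulators none rose or fell over lines or over 12 libraries. NFE2L2 was at 41.5 and 47.2 TPM in sgRAC1 clone 1, 43.0 and 40.2 TPM in sgRAC1 clone 2 and 38.6 and 35.9 TPM in sgRAC1 clone 3. The RAC1-positive values were 35.2 and 26.3 TPM in sgNTC clone 1, 47.9 and 37.6 TPM in sgNTC clone 2 and 31.97 and 37.9 TPM in parental cells. Its libraries overlapped, with a difference of 0.20 ± 0.15 (SE) on the log2(TPM + 1) scale (limma adjusted p = 0.609). KEAP1 was at 2.55 and 3.52 TPM in sgRAC1 clone 1, 1.67 and 4.68 TPM in sgRAC1 clone 2 and 4.73 and 2.80 TPM in sgRAC1 clone 3. In comparison, levels were 1.92 and 3.21 TPM in sgNTC clone 1, 1.36 and 4.72 TPM in sgNTC clone 2 and 4.11 and 4.81 TPM in parental cells. Its line means overlapped, and the difference was 0.02 ± 0.23 (limma adjusted p = 0.982). The repressor BACH1 was at 12.6 and 7.36 TPM in sgRAC1 clone 1, 16.0 and 8.58 TPM in sgRAC1 clone 2 and 9.70 and 10.0 TPM in sgRAC1 clone 3. Libraries with RAC1 had 8.51 and 5.94 TPM in sgNTC clone 1, 13.3 and 8.45 TPM in sgNTC clone 2 and 6.81 and 9.29 TPM in parental cells. Its libraries overlapped, with a difference of 0.27 ± 0.18 (limma adjusted p = 0.562). MAFG, a small MAF partner of NRF2, was at 10.5 and 11.6 TPM in sgRAC1 clone 1, 9.54 and 11.98 TPM in sgRAC1 clone 2 and 12.9 and 11.6 TPM in sgRAC1 clone 3. Among RAC1-positive libraries were 9.23 and 10.1 TPM in sgNTC clone 1, 10.8 and 8.70 TPM in sgNTC clone 2 and 10.3 and 9.40 TPM in parental cells. The line means did not overlap, but libraries did, and the difference of 0.20 did not pass (limma adjusted p = 0.536). Per length, NFE2L2 was at the 81st percentile of all genes tested in RAC1-positive lines (36.2 TPM), and KEAP1 at 3.35 TPM.

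**Figure D3:**
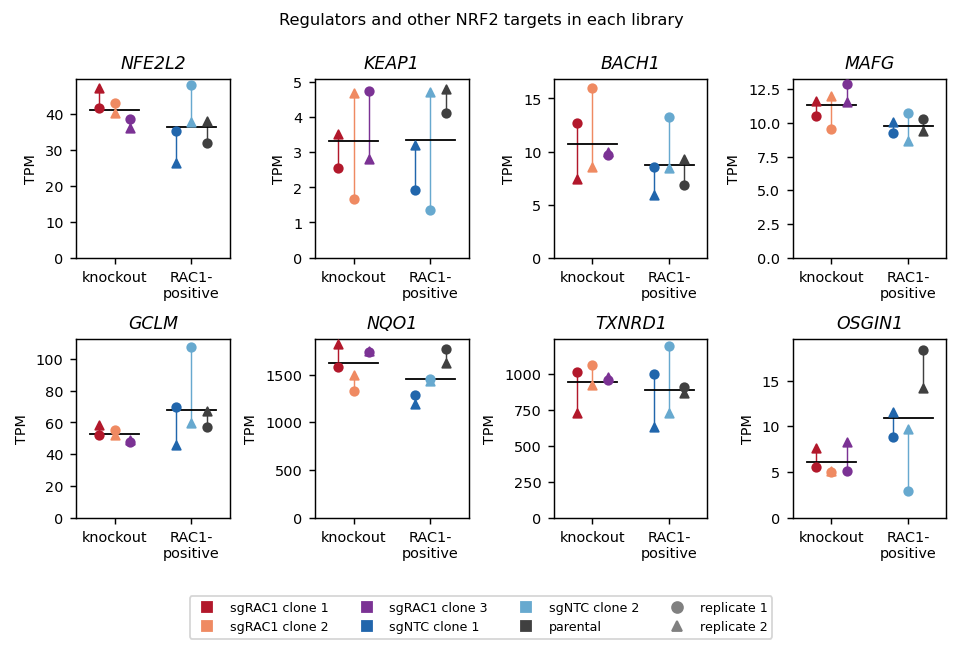
TPM per library for the regulators and 4 further members, knockout lines on the left of each panel and RAC1-positive lines on the right. Circles are replicate 1, triangles are replicate 2 and the black bar is the mean of the 3 line means; the libraries of the genotypes overlap in all 8 panels.

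The glutathione genes did not share a direction. GCLC (chr6:53497341-53616970, minus strand) encodes the catalytic subunit of glutamate-cysteine ligase, which makes the first intermediate of glutathione. It was at 28.2 and 33.8 TPM in sgRAC1 clone 1, 21.9 and 20.1 TPM in sgRAC1 clone 2 and 26.4 and 22.5 TPM in sgRAC1 clone 3. RAC1-positive libraries had 14.0 and 9.96 TPM in sgNTC clone 1, 17.2 and 15.3 TPM in sgNTC clone 2 and 15.7 and 11.9 TPM in parental cells. All 6 knockout libraries were above all RAC1-positive ones. The line means were 25.4 ± 5.08 TPM in knockout lines and 14.0 ± 2.14 TPM in RAC1-positive lines (SD over 3 lines each), a difference of 0.82 ± 0.18 (SE) on the log2(TPM + 1) scale that did not pass by line (limma adjusted p = 0.187) and rose over 12 libraries (limma adjusted p = 0.0173). Within batches it was 0.67 in batch 1 and 0.97 in batch 2. GCLM, the modifier subunit of the same enzyme (chr1:93885205-93909456, minus strand), was at 52.1 and 58.7 TPM in sgRAC1 clone 1, 55.4 and 52.3 TPM in sgRAC1 clone 2 and 47.6 and 49.1 TPM in sgRAC1 clone 3. The RAC1-positive values were 70.0 and 45.5 TPM in sgNTC clone 1, 108 and 59.4 TPM in sgNTC clone 2 and 56.9 and 67.1 TPM in parental cells. Its knockout line means lay below all RAC1-positive means, though 1 RAC1-positive library, sgNTC clone 1 replicate 2, was lower than every knockout library, and the difference of -0.31 ± 0.15 did not pass (limma adjusted p = 0.413), with -0.54 in batch 1 and -0.09 in batch 2. The highest GCLM value was that of sgNTC clone 2 replicate 1, the library that stood apart.

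GPX2 encodes a selenium-containing glutathione peroxidase of epithelial cells (chr14:64939152-64942905, minus strand) and had the largest difference among the members by line. It was at 3.35 and 7.41 TPM in sgRAC1 clone 1, 1.91 and 3.65 TPM in sgRAC1 clone 2 and 9.41 and 11.5 TPM in sgRAC1 clone 3. In comparison, levels were 0 and 0.574 TPM in sgNTC clone 1, 0 and 0 TPM in sgNTC clone 2 and 0 and 0.862 TPM in parental cells. Every knockout library was above every RAC1-positive library, of which 4 were listed at 0. The difference was 2.40 ± 0.41 on the log2(TPM + 1) scale (limma adjusted p by line = 0.143), with 2.35 in batch 1 and 2.46 in batch 2. The authors' deposited table gives a log2 fold change of 4.38 (adjusted p = 7.21e-07) at a mean of 8.28 normalized counts, so few reads lie behind it. SLC7A11, the cystine importer that feeds glutathione synthesis, had 15.8 to 31.3 TPM in knockout libraries and 14.1 to 39.2 TPM in RAC1-positive libraries. GSR, which reduces oxidised glutathione, had 37.5 to 60.3 TPM in knockout libraries and 30.6 to 74.8 TPM in RAC1-positive libraries. Neither passed (limma adjusted p = 0.827 and 0.781).

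**Figure D4:**
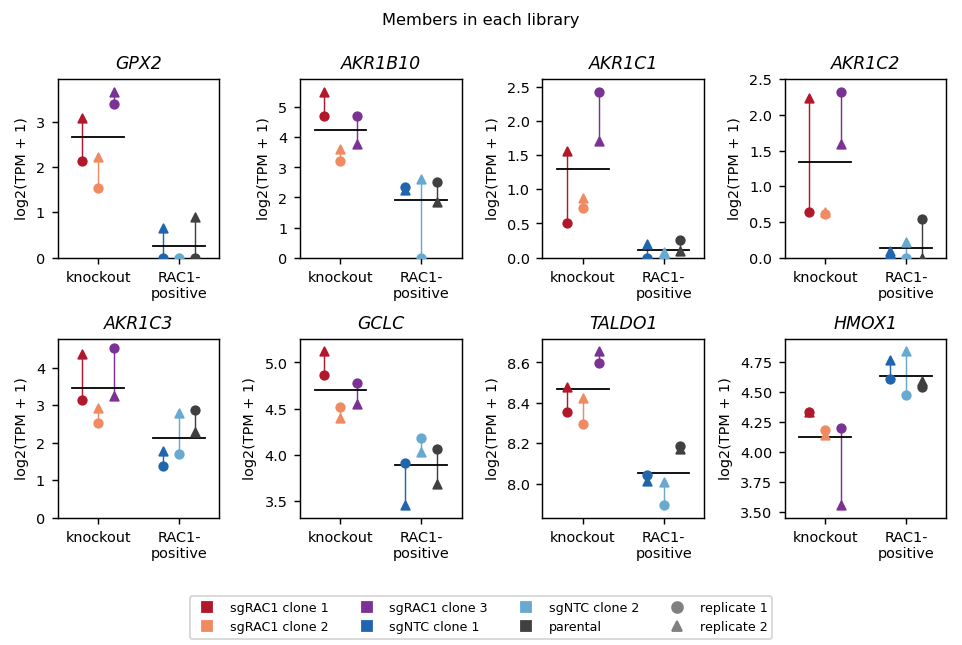
Level per library on the log2(TPM + 1) scale for 8 members, with the 3 knockout lines left of the 3 RAC1-positive lines. Circles are replicate 1, triangles are replicate 2 and the black bar is the mean of the 3 line means; the axes of GCLC, TALDO1 and HMOX1 do not start at 0. Knockout points lie above all RAC1-positive points except for AKR1C3, where libraries overlap, and HMOX1, where they lie below.

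The aldo-keto reductases were the group with the widest differences. AKR1B10, which reduces retinal and other aldehydes (chr7:134527592-134541408, plus strand), was at 25.1 and 44.1 TPM in sgRAC1 clone 1, 8.21 and 11.1 TPM in sgRAC1 clone 2 and 25.3 and 12.6 TPM in sgRAC1 clone 3. Libraries with RAC1 had 4.14 and 3.70 TPM in sgNTC clone 1, 0 and 5.09 TPM in sgNTC clone 2 and 4.69 and 2.59 TPM in parental cells. No knockout library overlapped a RAC1-positive one, and the 0 lies in sgNTC clone 2 replicate 1. With that library kept, the AKR1B10 difference was 2.32 ± 0.45 on the log2(TPM + 1) scale (limma adjusted p by line = 0.155). It was 2.59 in batch 1 and 2.06 in batch 2, and by clone 3.18 for sgRAC1 clone 1, 1.48 for clone 2 and 2.32 for clone 3. Without that library the difference over the remaining libraries was smaller, 1.94 (limma adjusted p = 0.0143), where 3.38% of all genes passed. That fit was chosen after seeing the data. AKR1C1, which reduces progesterone, was at 0.416 and 1.95 TPM in sgRAC1 clone 1, 0.653 and 0.831 TPM in sgRAC1 clone 2 and 4.34 and 2.24 TPM in sgRAC1 clone 3. Among RAC1-positive libraries were 0 and 0.147 TPM in sgNTC clone 1, 0 and 0.0600 TPM in sgNTC clone 2 and 0.200 and 0.0740 TPM in parental cells. All knockout libraries were above all RAC1-positive ones, though most values were low. AKR1C2, which inactivates dihydrotestosterone, was at 0.565 and 3.70 TPM in sgRAC1 clone 1, 0.532 and 0.564 TPM in sgRAC1 clone 2 and 3.99 and 2.00 TPM in sgRAC1 clone 3. RAC1-positive libraries had 0 and 0.0670 TPM in sgNTC clone 1, 0 and 0.162 TPM in sgNTC clone 2 and 0.452 and 0 TPM in parental cells. In both genes sgRAC1 clone 3 and replicate 2 of clone 1 were highest, and no libraries of the genotypes overlapped. AKR1C3, which makes testosterone from androstenedione, was at 7.85 and 19.4 TPM in sgRAC1 clone 1, 4.80 and 6.57 TPM in sgRAC1 clone 2 and 21.8 and 8.46 TPM in sgRAC1 clone 3. The RAC1-positive values were 1.59 and 2.42 TPM in sgNTC clone 1, 2.26 and 5.87 TPM in sgNTC clone 2 and 6.38 and 3.85 TPM in parental cells. Its line means were apart, but libraries overlapped. By line the differences were 1.19 for AKR1C1, 1.20 for AKR1C2 and 1.32 for AKR1C3 on the log2(TPM + 1) scale, with limma adjusted p of 0.269, 0.267 and 0.245 in that order. The authors' deposited table calls all of them higher, with log2 fold changes of 3.95 (adjusted p = 7.63e-07), 3.77 (0.00274) and 1.57 (0.0266). For AKR1C1 and AKR1C2 the means were 13.8 and 11.2 normalized counts, so few reads lie behind these calls. Both passed the level filter through the knockout lines alone, so their calls are a description. The AKR1C genes lie side by side on chromosome 10 (AKR1C1 at chr10:4963253-4983283) and share sequence. Of the 50-base stretches of the longest AKR1C1 transcript 28.7% also stood in other genes, as did 52.2% for AKR1C2, 12.1% for AKR1C3 and 17.4% for AKR1B10, so reads may be divided between them and the split within the family is uncertain. AKR1B15, which shares 11.6% of these stretches of AKR1B10, was at 2.47 and 2.44 TPM in sgRAC1 clone 1, 0.344 and 0.183 TPM in sgRAC1 clone 2 and 0.369 and 0.432 TPM in sgRAC1 clone 3. In comparison, levels were 0.181 and 0.129 TPM in sgNTC clone 1, 0 and 0.628 TPM in sgNTC clone 2 and 0.176 and 0.388 TPM in parental cells. Both libraries of sgRAC1 clone 1 stood above all others. AKR1B15 was picked after its values were seen and passed the level filter through the knockout lines alone.

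Other reductases and conjugation enzymes had smaller differences. NQO1, the quinone reductase often used as a reporter of NRF2 activity, had a median of 1662 TPM (1333 to 1822) over knockout libraries and 1442 TPM (1193 to 1766) over RAC1-positive libraries. Its libraries overlapped and it did not pass (0.16 ± 0.13 on the log2(TPM + 1) scale, limma adjusted p = 0.653). UGDH, which makes the UDP-glucuronate used in conjugation, was at 698 and 668 TPM in sgRAC1 clone 1, 605 and 609.9 TPM in sgRAC1 clone 2 and 771 and 761 TPM in sgRAC1 clone 3. Libraries with RAC1 had 412 and 312 TPM in sgNTC clone 1, 791 and 424 TPM in sgNTC clone 2 and 493 and 472 TPM in parental cells. All knockout libraries were above 5 of the RAC1-positive libraries, and only sgNTC clone 2 replicate 1 was higher than every one of them. The line means were 686 ± 79.4 TPM in knockout lines and 484 ± 123 TPM in RAC1-positive lines (SD over 3 lines each). The difference was 0.55 (limma adjusted p by line = 0.276, and 0.123 over 12 libraries). Without sgNTC clone 2 replicate 1, UGDH rose over the other 11 (limma adjusted p = 0.00795), where 3.38% of all genes passed. That fit was chosen after seeing the data, so its call of UGDH is a description. CBR1, a carbonyl reductase, was at 38.4 and 55.3 TPM in sgRAC1 clone 1, 34.6 and 51.1 TPM in sgRAC1 clone 2 and 45.1 and 57.7 TPM in sgRAC1 clone 3. Among RAC1-positive libraries were 36.4 and 69.9 TPM in sgNTC clone 1, 45.9 and 55.2 TPM in sgNTC clone 2 and 90.5 and 149 TPM in parental cells. Both parental libraries were higher than all others, and the remaining libraries overlapped. It is lower in the authors' deposited table (log2 fold change -0.67, adjusted p = 0.0443) and did not pass by line (limma adjusted p = 0.526). EPHX1, the microsomal epoxide hydrolase, had 2.51 to 11.2 TPM in knockout libraries and 2.58 to 6.12 TPM in RAC1-positive libraries and did not pass (limma adjusted p = 0.476).

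Of the 3 tested members of the thioredoxin system none rose or fell over lines or over 12 libraries. TXN, thioredoxin, was among the most abundant members and was at 4812 and 4850.3 TPM in sgRAC1 clone 1, 3810.1 and 3352 TPM in sgRAC1 clone 2 and 3252 and 3312 TPM in sgRAC1 clone 3. RAC1-positive libraries had 5093 and 4219 TPM in sgNTC clone 1, 5557 and 4641 TPM in sgNTC clone 2 and 4461 and 5214 TPM in parental cells. Both libraries of sgRAC1 clone 1 lay within the RAC1-positive range, and the 4 libraries of clones 2 and 3 lay below it. The difference by clone was -0.0032 for sgRAC1 clone 1, -0.44 for clone 2 and -0.56 for clone 3 on the log2(TPM + 1) scale, and over lines -0.33 ± 0.14 (limma adjusted p = 0.374). Over all 12 libraries TXN did not pass either (limma adjusted p = 0.171). With sgRAC1 clone 1 left out, TXN was lower at an adjusted p under 0.05 over the other libraries (limma), where 0.909% of all genes passed. That fit drops the clone without a difference and keeps clones 2 and 3, which share guide sgRAC1_2. It was chosen after seeing the data, so its call of TXN is a description. TXNRD1, the selenoprotein that reduces thioredoxin, had 728 to 1065 TPM in knockout libraries and 629 to 1199 TPM in RAC1-positive libraries. PRDX1, a peroxidase that thioredoxin recharges, had 1495 to 1629 TPM in knockout libraries and 1408 to 1601 TPM in RAC1-positive libraries. Neither passed (limma adjusted p = 0.646 and 0.841). SRXN1, which repairs over-oxidised peroxiredoxins, was the member under the filter, with 0.169 to 0.634 TPM in knockout libraries and 0 to 0.865 TPM in RAC1-positive libraries; 85.0% of its exonic bases are shared with the annotated gene AL121758.1, so its own level is uncertain.

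Among the suppliers of NADPH the pentose phosphate genes PGD and TALDO1 were higher. TALDO1, transaldolase of the non-oxidative branch (chr11:747329-765024, plus strand), was at 326 and 355 TPM in sgRAC1 clone 1, 313 and 342 TPM in sgRAC1 clone 2 and 386 and 402 TPM in sgRAC1 clone 3. The RAC1-positive values were 263 and 257 TPM in sgNTC clone 1, 237 and 256 TPM in sgNTC clone 2 and 291 and 287 TPM in parental cells. Every knockout library lay above every RAC1-positive one, with line means of 354 ± 35.3 TPM in knockout lines and 265 ± 21.8 TPM in RAC1-positive lines (SD over 3 lines each). The difference was 0.41 ± 0.10 on the log2(TPM + 1) scale, not passing by line (limma adjusted p = 0.209) and rising over 12 libraries (limma adjusted p = 0.0182), with 0.37 in batch 1 and 0.45 in batch 2. PGD, 6-phosphogluconate dehydrogenase, which makes NADPH itself, was at 230.4 and 259.6 TPM in sgRAC1 clone 1, 165 and 197 TPM in sgRAC1 clone 2 and 201 and 215 TPM in sgRAC1 clone 3. In comparison, levels were 157 and 153 TPM in sgNTC clone 1, 153 and 164 TPM in sgNTC clone 2 and 174 and 148 TPM in parental cells. The line means were apart, and 1 knockout library, sgRAC1 clone 2 replicate 1, lay inside the RAC1-positive range. Its difference of 0.40 was close to the threshold over 12 libraries (limma adjusted p = 0.0507) and passed in the authors' deposited table (adjusted p = 0.00594). TKT, transketolase, had 58.3 to 95.8 TPM in knockout libraries and 57.1 to 74.3 TPM in RAC1-positive libraries. ME1, malic enzyme, had 28.6 to 35.5 TPM in knockout libraries and 20.2 to 45.5 TPM in RAC1-positive libraries. Neither passed (limma adjusted p = 0.642 and 0.679).

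Of the efflux pumps for glutathione and glucuronide conjugates, ABCC3 was at 6.59 and 8.27 TPM in sgRAC1 clone 1, 5.36 and 7.14 TPM in sgRAC1 clone 2 and 9.89 and 9.22 TPM in sgRAC1 clone 3. Libraries with RAC1 had 3.44 and 4.88 TPM in sgNTC clone 1, 5.32 and 5.64 TPM in sgNTC clone 2 and 5.50 and 4.23 TPM in parental cells. Its line means were apart, while sgRAC1 clone 2 replicate 1 lay within the RAC1-positive range, and the difference of 0.57 did not pass by line (limma adjusted p = 0.293) but passed in the authors' deposited table (adjusted p = 0.00439). ABCC1 was at 4.70 and 4.74 TPM in sgRAC1 clone 1, 4.01 and 3.85 TPM in sgRAC1 clone 2 and 5.18 and 3.80 TPM in sgRAC1 clone 3. Among RAC1-positive libraries were 2.62 and 2.87 TPM in sgNTC clone 1, 2.02 and 3.58 TPM in sgNTC clone 2 and 4.32 and 3.15 TPM in parental cells. Its line means were also apart with libraries overlapping, and it did not pass (limma adjusted p = 0.393). ABCC2 had 0.390 to 2.06 TPM in knockout libraries and 0.753 to 2.46 TPM in RAC1-positive libraries and did not pass (limma adjusted p = 0.733).

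HMOX1 was the member whose libraries were lower in knockouts without overlap. It encodes haem oxygenase, which breaks down haem and is a target of both NRF2 and the repressor BACH1 (chr22:35380361-35394214, plus strand). It was at 19.2 and 19.2 TPM in sgRAC1 clone 1, 17.1 and 16.7 TPM in sgRAC1 clone 2 and 17.3 and 10.8 TPM in sgRAC1 clone 3. RAC1-positive libraries had 23.3 and 26.2 TPM in sgNTC clone 1, 21.3 and 27.6 TPM in sgNTC clone 2 and 22.2 and 23.1 TPM in parental cells. The line means were 16.7 ± 2.56 TPM in knockout lines and 23.9 ± 1.13 TPM in RAC1-positive lines (SD over 3 lines each). The difference was -0.51 ± 0.15 on the log2(TPM + 1) scale (limma adjusted p by line = 0.245, and 0.0710 over 12 libraries), with -0.30 in batch 1 and -0.72 in batch 2, and the authors' deposited table calls it lower (adjusted p = 0.0133). OSGIN1, a growth inhibitor induced by oxidative stress, was at 5.54 and 7.66 TPM in sgRAC1 clone 1, 4.96 and 5.09 TPM in sgRAC1 clone 2 and 5.14 and 8.31 TPM in sgRAC1 clone 3. The RAC1-positive values were 8.88 and 11.5 TPM in sgNTC clone 1, 2.96 and 9.65 TPM in sgNTC clone 2 and 18.3 and 14.2 TPM in parental cells. Its libraries overlapped because of the low value in sgNTC clone 2 replicate 1. The difference of -0.62 did not pass (limma adjusted p = 0.480). Without that library it was -0.91 and OSGIN1 fell over 11 libraries (limma adjusted p = 0.0267), where 3.38% of all genes passed. That fit was chosen after seeing the data, so its call of OSGIN1 is a description. The authors' deposited table calls OSGIN1 lower (log2 fold change -0.98, adjusted p = 0.00220). FTL, the ferritin light chain, was the most abundant member at 6169.6 to 13919.7 TPM in knockout libraries and 5805 to 15903 TPM in RAC1-positive libraries. FTH1, the ferritin heavy chain, had 56.6 to 91.6 TPM in knockout libraries and 51.3 to 90.0 TPM in RAC1-positive libraries, with 62.4% of its exonic bases overlapping annotated exons of BEST1. Of the 50-base stretches of the longest FTH1 transcript 40.4% also stood in other genes, as did 18.3% for FTL, so the levels of both are uncertain. SQSTM1, an autophagy receptor that binds KEAP1, had 7.11 to 10.9 TPM in knockout libraries and 7.14 to 16.0 TPM in RAC1-positive libraries. None of these last 3 passed (limma adjusted p = 0.962, 0.725 and 0.866).

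The clones were also compared singly with the 3 RAC1-positive lines, in a fit where the error comes from how the 2 libraries of each line differ. In sgRAC1 clone 1, 2 members rose, GCLC (limma adjusted p = 0.0462) and GPX2 (0.0444), with a background of 0.484% of all genes. In clone 2, made with the guide of clone 3, no member passed, with a background of 0.196%, and 7 of 32 members had an unadjusted p under 0.05, as did 1287 of all 17367 genes. In clone 3, 2 members rose, GPX2 (limma adjusted p = 0.00684) and TALDO1 (0.0224), with a background of 1.08%. GPX2 passed the level filter through the knockout lines alone, so its calls in clones 1 and 3 are a description. The median difference of the members on the log2(TPM + 1) scale was 0.26 in clone 1, 0.16 in clone 2 and 0.28 in clone 3, and these comparisons share the RAC1-positive libraries. These counts turned on single libraries: leaving out any 1 library outside sgNTC clone 2 gave 0 in clone 1, leaving out either library of clone 3 gave 0 in clone 3, and leaving out any 1 of sgNTC clone 1 or parental gave 1 there. Without sgNTC clone 2 replicate 1 they were 3 in clone 1 (background 0.892%) and 4 in clone 3 (1.53%), and without its replicate 2 they were 4 (1.78%) and 6 (4.07%). Between RAC1-positive lines no member passed: sgNTC clone 1 minus parental had a median of -0.18 (background 0%), and sgNTC clone 2 minus parental had a median of -0.01 (background 0.0115%). At an unadjusted p under 0.05 were 2 members and 508 of all genes for sgNTC clone 1, and 3 members and 1164 of all genes for sgNTC clone 2.

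A wider list held 87 further genes of the same pathways, 71 of them tested. It was also chosen with earlier results of these data known, so its counts are a description. By line none passed (limma). The line means were apart for 14 genes higher in knockouts and 3 lower, 23.9% of the list beside the 20.5% of all genes, and the median difference was 0.14. Over 12 libraries 4 rose and 1 fell, 7.04% beside 2.12%: TFRC, BLVRA, GLRX and PRDX2 higher and RPIA lower. TFRC, the transferrin receptor that imports iron, averaged 356 ± 51.8 TPM in knockout lines and 188 ± 17.6 TPM in RAC1-positive lines (limma adjusted p over 12 libraries = 0.0296). BLVRA, which reduces biliverdin, the product of haem oxygenase, averaged 214 ± 12.9 TPM in knockout lines and 150.5 ± 11.4 TPM in RAC1-positive lines (limma adjusted p = 0.0116). GLRX, glutaredoxin, averaged 15.2 ± 1.40 TPM in knockout lines and 9.40 ± 0.450 TPM in RAC1-positive lines (limma adjusted p = 0.0189). PRDX2, a cytosolic peroxiredoxin, averaged 215 ± 6.63 TPM in knockout lines and 148 ± 24.6 TPM in RAC1-positive lines (limma adjusted p = 0.0194). RPIA, ribose-5-phosphate isomerase, fell, with a difference of -0.55 ± 0.13 (SE) on the log2(TPM + 1) scale and no overlap of libraries (limma adjusted p = 0.0324), while TALDO1 of the same branch rose. Apart from the SE of RPIA, errors here are SD over 3 lines per genotype. None of these 5 calls held throughout: with each of the 12 libraries and 6 lines left out in turn, BLVRA passed in 14 of 18 fits, GLRX and PRDX2 in 13 each, and TFRC and RPIA in 6 each. Without sgNTC clone 2 replicate 2 the limma adjusted p was 0.0839 for BLVRA, 0.160 for GLRX, 0.119 for PRDX2, 0.227 for TFRC and 0.193 for RPIA. The other genes with the smallest p of their groups did not pass over lines or over 12 libraries (limma), while the authors' deposited table calls 14 of the 73 list genes it holds, 10 higher and 4 lower, which is 19.2% beside its background of 9.74%. Among genes not yet given it has GPX3 (0.80, adjusted p = 0.00229), ABCC6 (1.20, 0.0372), NCOA4 (0.19, 0.0315), TXNIP (1.73, 0.00879), IDH1 (0.52, 0.0124) and PTGR1 (0.61, 0.0232) higher by log2 fold change. It has TXNRD2 (-0.81, adjusted p = 0.000502), GPX1 (-0.81, 0.00288) and EPHX2 (-1.29, 0.00587) lower. TXNIP, IDH1, PTGR1, TXNRD2, GPX1 and EPHX2 lie outside the rule for named genes and were picked after their values were seen. ABCC6, and AKR1B15 given above with the aldo-keto reductases, passed the level filter through the knockout lines alone. On the log2(TPM + 1) scale the differences by line of the genes with the smallest p were 0.32 for GSK3B and 0.23 for NFE2L1 among regulators, 0.28 for GSS of glutathione synthesis and 0.93 for the peroxidase GPX3. They were 0.45 for IDH2, an NADPH source of mitochondria, 0.38 for CBR4, 0.61 for CYP4F11, 0.27 for ABCC5 and 0.61 for ABCC6. NCOA4, the receptor for ferritin breakdown, differed by 0.20, and TRIM16L by 0.33.

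**Figure D5:**
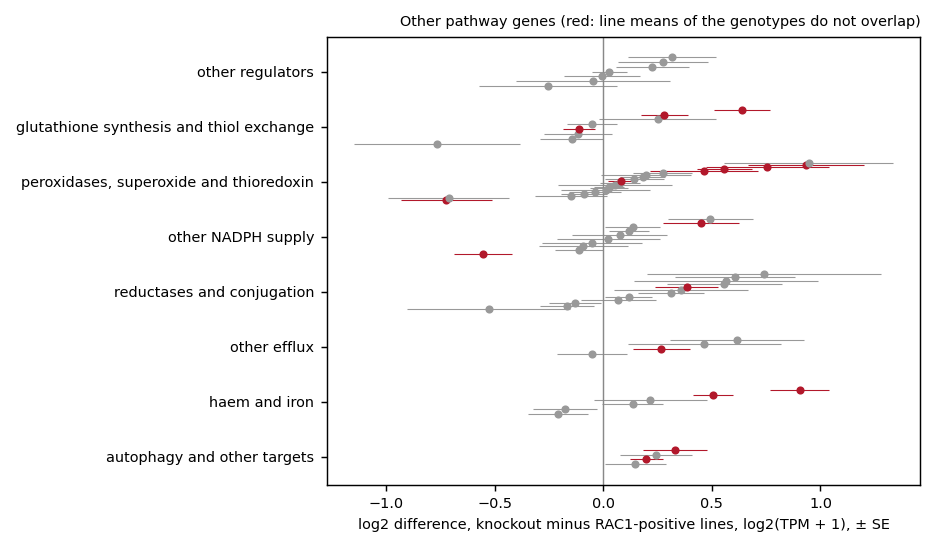
Difference between knockout and RAC1-positive lines on the log2(TPM + 1) scale for the further pathway genes tested, by group, with bars for the SE. Each point is 1 gene and red marks the 17 genes whose line means did not overlap, 14 of them right of 0 and 3 left of it.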

How the data were processed

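RNA was sequenced from 12 libraries of DU145 cells, made with SMARTScribe reverse transcription and tagmentation per the labels' protocols. Tools and build named in the submitters' processing notes are bcl2fastq, STAR 2.6.1d, DESeq2 and GRCh38. Which counter, strand setting and annotation were used was not given in the sources used here. In 1 table the authors deposited TPM per library, a unit read from column sums of 1000000. Per the file headers it also holds the authors' DESeq2-style comparison: the mean normalized signal, the log2 fold change and its SE, the Wald score, the p-value and the adjusted p-value. The design and direction of that comparison are not stated, and its sign was read from the TPM values. The table gives no depth, so p-values rest on the spread between lines or libraries.

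From the TPM, log2(TPM + 1) was averaged over the 2 libraries of each line. The 3 knockout lines were compared with the 3 RAC1-positive lines in limma 3.58.1 (R 4.3.3), with variances that follow the mean level. Genes under a mean of 1 TPM in both genotypes were left out, and p-values were adjusted by Benjamini-Hochberg over the 17367 genes kept. On this scale the change of low genes is understated. Further fits used the 12 libraries with the line as a random block, with and without the batch, and single clones. Alternatives changed the scaling, the level filter, the pseudocount and the batches used, and left out each library or line. The tests across genes were also run on simulated data. The simulated spread was that between the 2 libraries of a line, with no differences between lines. That run therefore cannot show how the fits behave when clones differ.

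A replicate number is a shared batch in the labels. Deviations of same-numbered libraries correlated at -0.13 to 0.30 over 15 pairs of lines. Members and lists were chosen with earlier results of these data known. Values by library are given for the regulators, for members with line means apart and for members past the authors' threshold. TXN was added to these after its values were seen, and the other members are given by range. Of the wider list, the 2 genes with the smallest p in each of 8 groups are named, and others that the authors' table calls were added after their values were seen. Promoter windows are from RefSeq and gene positions from GENCODE 29.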

Additional observations from a re-analysis of the deposited data

Results flagged for a closer look

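Each member was examined for a library far from the other 5 of its genotype, with Dixon's ratio for 6 libraries. Of 64 groups of libraries 3 passed, and chance gives about 1 in 20. HMOX1 was at 10.8 TPM in sgRAC1 clone 3 replicate 2, below the nearest knockout library at 16.7 TPM. ABCC2 was at 2.46 TPM in sgNTC clone 2 replicate 1, above the nearest RAC1-positive library at 1.31 TPM. AKR1C2 was at 0.452 TPM in parental replicate 1, above the nearest RAC1-positive library at 0.162 TPM.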

How the results depend on the processing

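The count of 0 members called by line became 4 over 12 libraries with the line as a random block, and 4 again with the replicate block added, where the adjusted p was 0.00823 for GPX2, 0.0230 for GCLC, 0.0253 for TALDO1 and 0.0370 for AKR1B10 (limma). Leaving out each library or line gave 0 by line and 1 to 6 over the libraries left, a setting chosen after seeing the data, while the share of all genes called ran from 0.23% to 3.38%. The 6 came without sgNTC clone 2 replicate 1, where the share was 3.38%. It was 1 without sgNTC clone 2 replicate 2, without sgRAC1 clone 3 or without sgNTC clone 1, and 2 without sgRAC1 clone 1 or without the parental line. With a line or library left out, members with line means apart ran from 10 to 16 higher (12 with all libraries) and 1 to 4 lower (2 with all). In batch 1 alone 6 were higher, in batch 2 alone 13, and with a filter of 5 TPM 9. The share of all genes apart is not given for these settings, so these counts are a description. The median difference of 0.19 was 0.12 in batch 1 alone, 0.28 in batch 2 alone and 0.10 to 0.32 with a line or library left out. The 2 members called in sgRAC1 clone 1 became 1 with upper quartile scaling, where 0.426% of all genes were called. That count was also 1 with no level filter (0.367%) and 1 with a filter of 5 TPM (0.831%). It was 0 with a pseudocount of 0.1 (0.328%) and 0 to 4 with a line or library left out (0.0976% to 1.78%). The 2 members called in sgRAC1 clone 3 became 4 with a pseudocount of 5 (1.24%) and 0 to 6 with a line or library left out (0.104% to 4.07%). Between sgNTC clone 2 and parental, 0 became 0 to 4, with 4 without sgNTC clone 2 replicate 2, where 10.7% of all genes were called. The replicate block ended the call of the marker ENO2 (adjusted p = 0.0504, against 0.0387 without it) and no call of a member. The cause of these shifts was not tested. Of 890 values of single members under the alternatives, 26 had the other sign, all in KEAP1, SLC7A11, GSR, TXNRD1, FTL or SQSTM1.

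With 3 lines per genotype and unknown depth, small differences and genes near 1 TPM are measured poorly. Each knockout line is 1 clone, 2 of 3 share a guide, and differences between clones from causes other than RAC1 cannot be told apart from the knockout with so few lines. A library with many undetected genes, sgNTC clone 2 replicate 1, is among the RAC1-positive libraries.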

Other observations

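The mRNAs of the subunits of glutamate-cysteine ligase stood in a different proportion in the knockout libraries. The ratio of GCLC to GCLM, both in TPM, was 0.384 to 0.575 in the 6 knockout libraries and 0.159 to 0.275 in the 6 RAC1-positive libraries. It averaged 0.485 ± 0.0867 in knockout lines and 0.208 ± 0.0138 in RAC1-positive lines (SD, n = 3 lines each), with a two-sided exact permutation p of 0.1 over lines, the smallest that 3 lines against 3 allow. The ratio was chosen after the values of both genes had been seen. All GCLC line means were higher and all GCLM line means lower in knockouts, so the ratios had to separate. The permutation p was thus fixed in advance and is no further support.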
